A study of Mus musculus with 4 samples.

Results

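The cells described here are 642 CD8 T cells from MC38 tumours of mice given anti-PD-1, chosen by their own measured values, namely RNA of several interferon-stimulated genes in 1 cell. A cell entered the CD8 gate when the deposited values of Cd8a and Cd8b1 were above 0 and those of Cd4, Foxp3 and the proliferation gene Mki67 were 0, which 4770 of the 12562 anti-PD-1 cells met. Within the gate, the 642 cells had values above 0 for at least 3 of the 6 genes Ifit1, Ifit3, Ifit3b, Rsad2, Mx1 and Cmpk2 (the rule genes), 13.5% of the gated cells and 5.11% of the library. They were compared with the 2724 gated cells that had none of the 6. The other 1404 gated cells, 1068 with 1 rule gene and 336 with 2, stand between and are used only as steps of a scale. Because the 6 genes chose the cells, and every other gene was read in the same cells, all values below are descriptions and no test was run. The 95% intervals are exact and cover counting error only.

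The study placed MC38 cells, a mouse colon carcinoma line, orthotopically in C57BL/6 mice and took the tumours 2 weeks after the first treatment. There were 4 arms: vehicle control (called untreated in the sample's own entry), anti-PD-1 antibody given 3 times a week for 5 doses in all, ATT-I (Atractylenolide I) at 50 mg/kg each day, and ATT-I together with anti-PD-1. Each arm is 1 droplet library (10x Genomics) of 5 tumours pooled together, so differences between mice cannot be seen and no arm has a replicate. Anti-PD-1 blocks the inhibitory receptor encoded by Pdcd1, which activated T cells carry.

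Interferons are secreted signals of infection, damaged DNA and immune activation. The receptor for interferon alpha and beta, IFNAR1 with IFNAR2, works through the kinases TYK2 and JAK1, which switch on transcription factors of the STAT family. With IRF9 these form a complex that binds the interferon-stimulated response element (ISRE), and interferon gamma acts through a shorter element, GAS. The genes that follow encode antiviral proteins, nucleic acid sensors, GTPases and the class I antigen presentation machinery, and T cells that carry this program are a known state in tumours.

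The ISRE lies before the start of part of these genes, counted further on, and 5 promoters that hold it are shown as examples. The lines below give, 5′ to 3′ on the gene's strand, the stretch before the start site in 2 of the rule genes and in 3 of the 20 other genes with the highest ratios, with capitals marking each match to the element, read as GAAA, any 2 bases and GAAA again on either strand, from RefSeq on GRCm38.p6.
Ifit1: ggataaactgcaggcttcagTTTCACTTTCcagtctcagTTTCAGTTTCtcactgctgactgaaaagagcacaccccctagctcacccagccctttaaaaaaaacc
Rsad2: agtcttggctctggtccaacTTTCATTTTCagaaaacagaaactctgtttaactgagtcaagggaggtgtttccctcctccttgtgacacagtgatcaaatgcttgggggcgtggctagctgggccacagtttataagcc
Isg15: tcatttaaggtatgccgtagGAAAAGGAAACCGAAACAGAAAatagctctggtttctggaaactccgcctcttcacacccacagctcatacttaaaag
Cxcl10: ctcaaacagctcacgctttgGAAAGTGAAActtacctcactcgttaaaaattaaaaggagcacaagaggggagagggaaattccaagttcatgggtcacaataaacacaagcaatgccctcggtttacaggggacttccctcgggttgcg
Oas3: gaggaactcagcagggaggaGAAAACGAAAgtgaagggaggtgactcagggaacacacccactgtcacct
The windows are chr19:34640765-34640870 (Ifit1, plus strand), chr12:26456453-26456592 (Rsad2, minus), chr4:156200819-156200916 (Isg15, minus), chr5:92348973-92349122 (Cxcl10, minus) and chr5:120777685-120777754 (Oas3, minus). Ifit1 holds 2 separate matches, whose first bases lie 104 and 85 bases before the start. Isg15 holds 3 overlapping matches, whose first bases lie from 78 to 66 bases before the start. The single matches of Rsad2, Cxcl10 and Oas3 begin 120, 213 and 75 bases before their starts.

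The libraries differed most in size. The table joins 13518 genes and 13213 cells, of which the vehicle, ATT-I and combination libraries supply 155, 297 and 199. Median UMIs (unique molecular identifiers, the counted RNA molecules) per cell ranged from 6828 in ATT-I to 23927 in the combination, with 7148 under anti-PD-1. A single barcode occurred in 2 libraries, and it was not among the gated cells.

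Both groups carried T cell genes at like levels, and the 642 cells were slightly shallower than their reference. Their median depth was 6111.5 UMIs and 1928.5 genes, a little below the 7160 UMIs and 2151.5 genes of the 2724 cells with none of the rule genes. Cells deeper than double the gated median made up 4.36% and 4.96%, and mitochondrial RNA 2.04% and 2.22%. Cd8a and Cd8b1 belong to the gate, but the T cell receptor genes do not: Cd3e was found in 96.7% of the 642 cells and 97.6% of the reference, and Trac in 96.3% and 98.3%. The 8 genes present of the 10 monocyte or macrophage markers summed to 0.661 against 0.449 UMIs per 10000 UMIs, with at least 1 UMI in 22.7% and 21.4% of cells and up to 126 and 55.7 in single cells. Among them Apoe (log2 ratio 0.71), C1qb (0.65), Lyz2 (0.59) and Cd68 (0.50) were above the reference in level, C1qa was at 0.09, and Itgam was at 0 in the 642 and had 11 UMIs in the reference. Markers of B cells summed to 0.096 against 0.036, of fibroblasts to 0.131 against 0.148, of epithelial tumour cells to 0.183 against 0.171 and of NK cells to 6.48 against 7.09. Of the epithelial markers, Cdh1 stood at a log2 ratio of 0.98, Epcam at -0.66, and Krt19 had 0 UMIs in the 642 and 1 in the reference. The NK markers differed among themselves. Fcer1g was at -0.94 (23.2% against 35.6% of cells), Ncr1, Tyrobp and Klrb1c lay between -0.33 and -0.18, and Klrk1 and Eomes were at 0.44 and 0.39. The erythrocyte genes summed to 1.30 against 0.818. Markers of plasmacytoid dendritic cells summed to 12.2 against 2.21, but that list holds Bst2 and Irf7, which are interferon-stimulated genes themselves. The part of RNA from other cells in the results was not tested beyond leaving out cells with such markers, described with the processing alternatives. Absence of Mki67 is not absence of division at this depth, since 59.3% of the 642 cells and 60.5% of the reference held a UMI of Top2a, Mcm5, Birc5 or Rrm2.

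The rule genes differed in how often they were found, which describes the choice of cells and is no result. Ifit3, which encodes an antiviral tetratricopeptide protein, was found in 604 of the 642 cells (94.1%), and its relative Ifit1, which binds foreign 5′ RNA ends, in 563 (87.7%). Mx1, an interferon-induced dynamin-like GTPase, was found in 491 cells (76.5%), Rsad2, which encodes viperin, in 398 (62.0%), Ifit3b in 379 (59.0%) and Cmpk2, a mitochondrial nucleotide kinase, in 277 (43.1%). Of the 42 combinations that satisfy the rule, 37 occurred. All 6 genes were found in 99 cells (15.4%), all but Cmpk2 in 76 (11.8%), and Ifit1, Ifit3 and Mx1 without the others in 59 (9.19%). Ifit3 and Ifit3b share 98.0% of 1697 aligned transcript bases, so their reads could have been divided between them, and the pair may count as 2 rule genes where a cell expressed 1. In the GENCODE annotation of GRCm38 these genes are neighbours on chromosome 19, with Ifit3 at chr19:34583531-34588731, Ifit3b at chr19:34607970-34613401 and Ifit1 at chr19:34640871-34650009. Rsad2 and Cmpk2 are neighbours on chromosome 12, at chr12:26442746-26456452 and chr12:26469204-26479837. RefSeq lists Mx1 of the reference strain as a transcribed pseudogene.

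Summed over the 6 genes, the 642 cells held from 3 to 76 UMIs with a median of 10. At the edge of the rule, the 218 cells with exactly 3 rule genes had a median of 5 summed UMIs, or 8.07 UMIs per 10000 UMIs, and the 336 cells just outside, with 2, had a median of 2, or 4.00. The highest cell just outside held 13 UMIs and the highest just inside 27, so the ranges overlapped. The plot of cells and levels by number of rule genes shows the level of each gene at each step, where a higher level with more rule genes follows from how the steps are made.

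**Figure D1:**
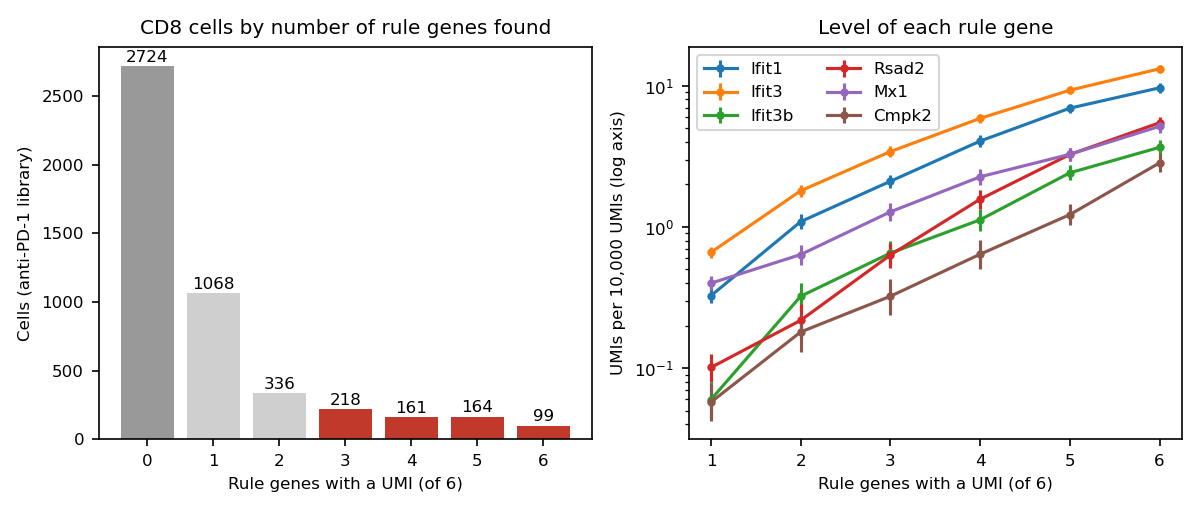
Left, number of Mki67-negative CD8 cells of the anti-PD-1 library by how many of the 6 rule genes had a UMI, with the 642 chosen cells in red and the 2724 reference cells in dark grey. Right, UMIs per 10000 UMIs of each rule gene (log axis) by that number, with exact 95% Poisson intervals as bars; the 99 cells with all 6 hold the highest level of each gene.

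Beyond the rule genes, many of the genes that were highest were of the interferon pathway. A gene entered the comparison when at least 10% of the cells of either group had a UMI, which 5986 genes outside the rule did. A gene that reached 10% only in the 642 cells leans higher by that entry, and one that reached it only in the reference leans lower. Counts of list members called higher or lower are therefore set in part by this filter. A gene is called higher or lower here when its ratio of summed UMIs per 10000 UMIs passed 1.5-fold, a log2 ratio of 0.58. By this measure 333 genes, 5.56% of those compared, were higher in the 642 cells and 178, or 2.97%, were lower. The rule was applied in this same contrast, so nothing is read from these shares. The median gene stood at a log2 ratio of -0.07. The 10 lists of interferon pathway genes described next hold 131 of the 5986 compared genes (2.19%). They hold 95 of the 333 higher genes (28.5%), 52 of the 72 that were at least 4-fold higher (72.2%) and 18 of the 22 at least 8-fold higher (81.8%). The 20 highest and 15 lowest genes named here leave out T cell receptor variable, immunoglobulin and provisional (Gm, AW, BC and Rik) genes. Of these 20 highest, only Isg15, Rtp4 and Irf7 reached 10% of the reference cells, so most entered through the 642 cells. The lists were also chosen with earlier results of these data known, so nothing is read from the list shares either.

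**Figure D2:**
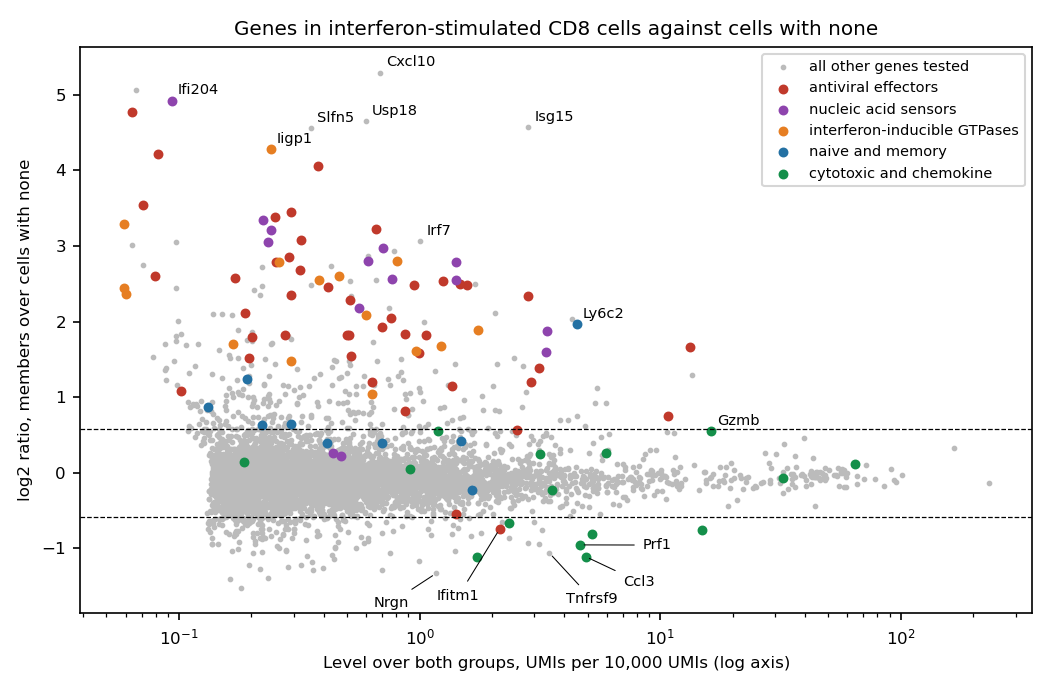
Each point is a gene outside the rule, with its level over both groups in UMIs per 10000 UMIs (log axis) and its log2 ratio of the 642 cells over the 2724 cells with none; colours mark 5 gene lists and dashed lines the 1.5-fold limits. Cxcl10, Usp18 and Isg15 lie above a log2 ratio of 4, while Prf1, Ccl3 and Tnfrsf9 lie below the lower line.

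Antiviral effectors were higher almost throughout. Of 50 genes on this list, 48 were in the table and 44 were compared, of which 41 were higher, 1 was lower and 2 lay between, with a median log2 ratio of 2.08. The highest were Oasl1 at 4.78, Oasl2 at 4.22 and Ifit2 at 4.06, the first 2 being relatives of the oligoadenylate synthetases that sense double-stranded RNA. Ifit2 had 758 UMIs in 50.8% of the 642 cells and 213 UMIs in 7.34% of the reference. Oas3, an oligoadenylate synthetase, was at 0.98 against 0.09 UMIs per 10000 UMIs (log2 ratio 3.38, interval 3.14 to 3.63). Xaf1, Parp9, Parp14 and Phf11b each lay between 2.05 and 2.49 on the log2 scale. The 3 membrane restriction factors of the Ifitm family went separate ways: Ifitm3 had a log2 ratio of 1.84, Ifitm2 of -0.55 and Ifitm1 of -0.74. Ifitm1 was in 15.6% of the 642 cells and 20.2% of the reference, and 1 cell held 12.9% of its UMIs among the 642. Its log2 ratio was -1.42 without cells holding markers of other lineages.

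The ISG15 system was higher in each of its compared genes. ISG15 is a ubiquitin-like protein that is joined to other proteins by UBA7, UBE2L6 and HERC6 and removed by USP18. Isg15 had a median of 11.5 UMIs per 10000 UMIs and a highest value of 77.0 in single cells among the 642, and a median of 0 and a highest value of 16.8 in the reference. Its RNA was found in 96.1% of the 642 cells and 29.8% of the reference, or in 88.0% and 14.8% after each cell was thinned to 3000 UMIs. The ranges of single cells overlapped, while the level over all cells was 13.5 against 0.57 UMIs per 10000 UMIs, a log2 ratio of 4.58 (4.49 to 4.67). Usp18, whose protein also damps the interferon receptor, was at 2.87 against 0.11 UMIs per 10000 UMIs, a log2 ratio of 4.66 (4.46 to 4.86). With the cells of 1 or 2 rule genes added to the reference, Isg15 and Usp18 were at 3.85 and 3.77. All 5 genes of the list were compared and all 5 were higher, with Ube2l6 at a log2 ratio of 2.72, Herc6 at 2.54 and Uba7 at 1.75. The 5 of 7 Schlafen genes compared were higher too, with Slfn5 at 4.56, Slfn1 at 2.94 and Slfn8 at 2.74. Schlafen proteins include nuclease-like restriction factors.

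Sensors of foreign nucleic acid were higher in 12 of the 14 genes compared of 17 listed, with a median log2 ratio of 2.68. Ifih1, which encodes the RNA sensor MDA5, was in 38.2% of the 642 cells and 6.13% of the reference (log2 ratio 3.34). Ddx58, which encodes RIG-I, had a log2 ratio of 2.18, Dhx58 of 3.05 and Ddx60 of 3.21. Among the DNA-binding genes of the Ifi200 cluster, Ifi204 stood at 4.93 on 207 against 32 UMIs, and Ifi203, Ifi206, Ifi208, Ifi209, Ifi213 and Mndal lay between 1.59 and 2.97. Zbp1, a sensor of Z-form nucleic acid, was at 2.56. The 2 genes that did not pass 1.5-fold were Aim2, of the same cluster, at 0.23 and Tmem173, which encodes the DNA pathway adaptor STING, at 0.26.

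All 15 interferon-inducible GTPases compared, of 18 listed, were higher, with a median log2 ratio of 2.36. Iigp1, an immunity-related GTPase, was at 1.11 against 0.06 UMIs per 10000 UMIs (log2 ratio 4.28), and in 32.7% against 3.82% of cells. Tgtp2 was at a log2 ratio of 3.29, Igtp at 2.80, Irgm1 at 2.55 and Ifi47 at 1.89. Of the guanylate-binding proteins, Gbp6 and Gbp2 were highest at 2.79 and 2.60, and Gbp8 lowest at 1.04.

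The receptors and kinases at the head of the pathway differed little, while several factors at its end were higher. Of 6 compared genes of the receptor and kinase list, only Jak2 passed 1.5-fold (log2 ratio 0.74), and Ifnar1, Ifngr1, Jak1 and Tyk2 lay between 0.05 and 0.18. Of 13 STAT and IRF genes compared, 6 were higher, among them Irf7 at 3.07, Stat2 at 2.36 and Irf9 at 1.43. Irf7, which amplifies interferon production, was at 3.68 against 0.44 UMIs per 10000 UMIs. Irf8 was lower at -0.67, and Irf3 was at 0.07. Among 8 inhibitors of signalling, Usp18, Socs1 (1.28) and Socs3 (0.90) were higher, while Ptpn6 and Ptpn2, both phosphatases, were at -0.47 and -0.33. Of 12 interferon genes listed only Ifng was in the table, so the alpha and beta interferons were not analysed here. Ifng was in 58.9% of the 642 cells and 64.8% of the reference, at 3.12 and 3.67 UMIs per 10000 UMIs (log2 ratio -0.23).

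In class I antigen presentation a minority of genes was higher. All 17 genes of the list were compared, 6 passed 1.5-fold upward and none downward, with a median log2 ratio of 0.53. These included the nonclassical class I genes H2-T22 at 1.07 and H2-T23 at 0.75, the peptide transporter Tap1 at 0.84, its partner Tapbp at 0.97 and the class I transactivator Nlrc5 at 0.68. B2m, the class I light chain, had a median of 34.7 UMIs per 10000 UMIs in single cells of the 642 and 29.1 in the reference, and a log2 ratio of 0.25. H2-K1 and H2-D1, the classical heavy chains, were at 0.38 and 0.26, and the chaperone genes Calr, Canx and Pdia3 at -0.27, -0.27 and 0.08. The immunoproteasome subunits Psmb10 and Psmb9 were at 0.86 and 0.70, and Psmb8 at 0.54.

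**Figure D3:**
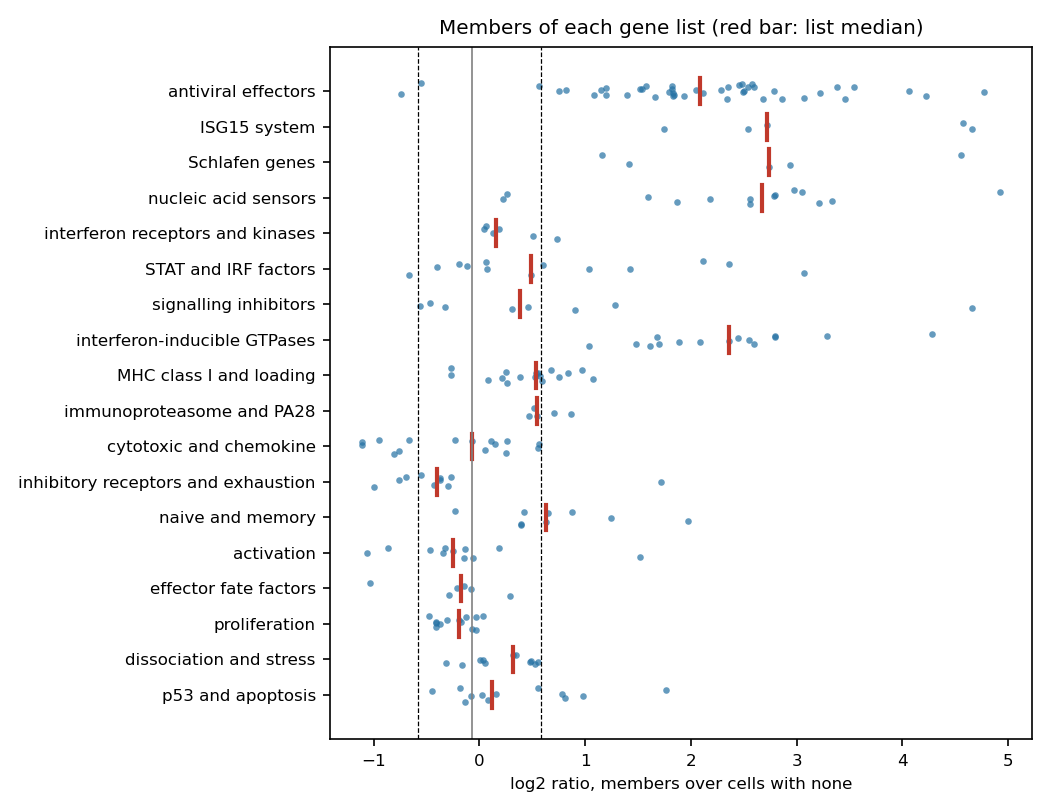
Each point is a compared gene at its log2 ratio of the 642 cells over the cells with none, by gene list, with the list median as a red bar, the median of all compared genes (-0.07) as a grey line and the 1.5-fold limits dashed. The antiviral, ISG15, Schlafen, sensor and GTPase lists have medians from 2.08 to 2.74, and the other lists from -0.40 to 0.63.

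Cxcl10, which had the highest ratio of the named genes outside the rule, was carried by a minority of the cells. CXCL10 is a chemokine that draws CXCR3-bearing T cells, and 202 of the 642 cells (31.5%) held its RNA, against 150 of 2724 (5.51%). Single cells ranged from 0 to 84 UMIs among the 642 and from 0 to 11 in the reference, and at least 2 UMIs were held by 147 and 18 cells. The log2 ratio of the levels was 5.29 (5.07 to 5.52), and the 20 cells with the most Cxcl10 held 45.7% of its UMIs among the 642. After thinning to 3000 UMIs, 23.8% and 2.63% of cells had a UMI. Within the 642, the 202 cells with Cxcl10 had higher levels of Iigp1 (log2 ratio 1.64), Rsad2 (1.26), Usp18 (1.17) and Cd274 (0.93) than the 440 without it, whereas Ly6c2 (-0.01), Gzmb (-0.04) and B2m (0.00) stood level. The 8 macrophage markers summed to 0.547 UMIs per 10000 UMIs (0.433 to 0.682) in the cells with Cxcl10 and 0.715 (0.623 to 0.817) in those without, and at least 1 of them was found in 24.3% and 22.05% of cells. Lyz2 was found in 7.43% and 4.77% of cells, and C1qa in 2.48% and 1.14%. The part of macrophage RNA in the Cxcl10 signal was not tested.

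Several genes of naive and memory T cells were higher in the 642 cells. Of 9 naive and memory genes compared, of 13 listed, 5 were higher and none lower, with a median log2 ratio of 0.63. That median depended on the setting. It was 0.37 with the reference matched on depth, 0.42 when every cell had equal weight, 0.31 after thinning and 0.65 when 2 rule genes sufficed. Ly6c2, a surface protein of memory and effector CD8 cells that interferon also induces, had a median of 6.75 UMIs per 10000 UMIs in single cells of the 642 and 0 in the reference, with highest values of 91.3 and 70.6. It was found in 72.3% and 45.1% of cells, or 66.1% and 31.9% after thinning, with a log2 ratio of 1.97. Slamf6, a receptor of progenitor-like T cells, was at 1.24, S1pr1, the receptor for exit from tissue, at 0.87, and the transcription factors Tcf7 and Lef1 at 0.65 and 0.63. Slamf6 and S1pr1 rest on 165 and 95 UMIs in the 642 cells. With the reference matched on depth they came to 0.83 and 0.61. Tcf7 rests on 188 UMIs and came to 0.37 when every cell had equal weight and to 0.14 without cells holding a UMI of Top2a, Mcm5, Birc5 or Rrm2. Il7r, Klf2 and Eomes lay between 0.39 and 0.42 and Cd27 was at -0.23.

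Effector molecules did not stand together as 1 group. Of 15 cytotoxic and chemokine genes compared, of 18 listed, 6 were lower and none passed 1.5-fold upward, with a median log2 ratio of -0.07, the same as that of all genes. Prf1, which encodes the pore-forming perforin, had a median of 1.40 UMIs per 10000 UMIs in single cells of the 642 and 2.51 in the reference. It was in 58.1% and 74.2% of cells, or 37.7% and 55.0% after thinning, with a log2 ratio of -0.95 (-1.04 to -0.87). The chemokine genes Ccl3 and Ccl4 were at -1.11 and -0.76, and Ccl3 was in 34.7% against 52.4% of cells. Ccl4 stood at the 1.5-fold limit, -0.58, when 2 rule genes sufficed. Gzma was at -0.67 although more of the 642 cells held it, 28.5% against 21.5%, and it came to -0.44 when every cell had equal weight. Gzmf stood at -0.81, with 1 cell holding 42.1% of its UMIs among the 642. Gzmc stood at -1.11, but 1 cell held 68.1% of its UMIs among the 642. Without the top cell of each group its log2 ratio was -1.82, and without cells holding a UMI of Top2a, Mcm5, Birc5 or Rrm2 it was 1.86, so no direction is read for Gzmc. Gzmb and Gzmk, granzymes of effector and of less differentiated cells, were at 0.55 and 0.56, just inside the limit. Gzmb was past it in 6 of 11 other settings, up to 0.86, but stood at 0.44 when 2 rule genes sufficed. Gzmk was past it in 5, up to 0.66, but stood at 0.40 with the reference matched on depth. Ccl5, Nkg7 and Fasl lay between -0.07 and 0.11.

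Inhibitory receptor and exhaustion genes had negative log2 ratios, with 1 exception. Of 10 compared genes of 13 listed, Cd200r1 (-1.0), Cd244 (-0.77) and Havcr2 (-0.70) were lower, and the list median was -0.40. Havcr2, which encodes TIM-3, was in 24.8% of the 642 cells and 38.8% of the reference, or in 13.9% and 21.1% after thinning, and was at -0.57 without cells holding a UMI of Top2a, Mcm5, Birc5 or Rrm2. Tox, a factor of exhausted cells, was at -0.56, and Pdcd1, Lag3 and Ctla4 lay between -0.43 and -0.37. Cd274, which encodes the ligand PD-L1 and is itself interferon-inducible, was higher at 1.72, on 257 against 366 UMIs.

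Of 11 activation genes compared, 1 was higher and 2 were lower. Cd69, an early activation marker that type I interferon also raises, was found in 80.2% of the 642 cells and 59.3% of the reference, with medians of 3.83 and 1.18 UMIs per 10000 UMIs in single cells and a log2 ratio of 1.52. Tnfrsf9, which encodes the costimulatory receptor 4-1BB, was in 44.4% and 72.4% of cells (log2 ratio -1.06), and Nr4a2, a nuclear receptor gene that antigen signals switch on, was at -0.87. The other 8 lay between. Among the effector fate factors, the only one past 1.5-fold was Cx3cr1, a receptor of terminal effector cells, at -1.04 on 67 UMIs. Of 12 p53 and apoptosis genes compared, Casp4 (1.76), Casp8 (0.98), Casp1 (0.81) and Tnfsf10, which encodes TRAIL (0.78), were higher. None of 13 proliferation genes and none of 11 dissociation and stress genes passed 1.5-fold, with medians of -0.19 and 0.32.

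The 15 lowest genes had log2 ratios from -1.52 to -1.11. They comprised Fcrl6 (-1.52), Myo10 (-1.40), Epdr1, Nrgn (-1.33), Mt1 (-1.29), Tfrc (-1.28), Adssl1 (-1.27), Pim3, Adgrg1 (-1.25), Myo1e (-1.22), Cd55 (-1.21), Eno3 (-1.18), Ubash3b (-1.16), Nrp1 (-1.14) and Ccl3. Adgrg1 encodes GPR56, a receptor of cytotoxic lymphocytes, Tfrc the transferrin receptor of growing cells, and Ubash3b a phosphatase that damps T cell receptor signalling. Nrgn, a calmodulin-binding protein gene, was in 15.7% of the 642 cells and 37.4% of the reference, or in 8.63% and 21.5% after thinning. Several of these genes are sparse, and Fcrl6 rests on 32 UMIs in the 642 cells. Myo1e, on 42 UMIs, was at -2.14 without cells holding markers of other lineages.

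The differences were graded with the number of rule genes found. From 0 through 3 to 6 rule genes, Isg15 was at 0.57, 7.71 and 21.0 UMIs per 10000 UMIs, Usp18 at 0.11, 1.52 and 5.04, and Irf7 at 0.44, 2.75 and 5.38. Each was higher at every step. Cxcl10 and Iigp1 were concentrated at the upper end: Cxcl10 was at 0.55 with 3 rule genes and 9.05 with 6, and Iigp1 at 0.35 and 2.63. Ly6c2 had another shape, at 2.98 with none, 10.1 already with 2, and 13.5 with 6. Prf1 was at 5.08 with none, 2.82 with 2 and 1.38 with 6, and Tnfrsf9 at 3.81, 2.52 and 1.09. Ccl3 was lowest with 5 rule genes (1.89) and at 2.98 with 6, and Havcr2 was at 0.75 with 4 and 0.29 with 6. Gzmb showed no order over the steps, at 14.99 with none, 32.9 with 5 and 17.8 with 6.

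**Figure D4:**
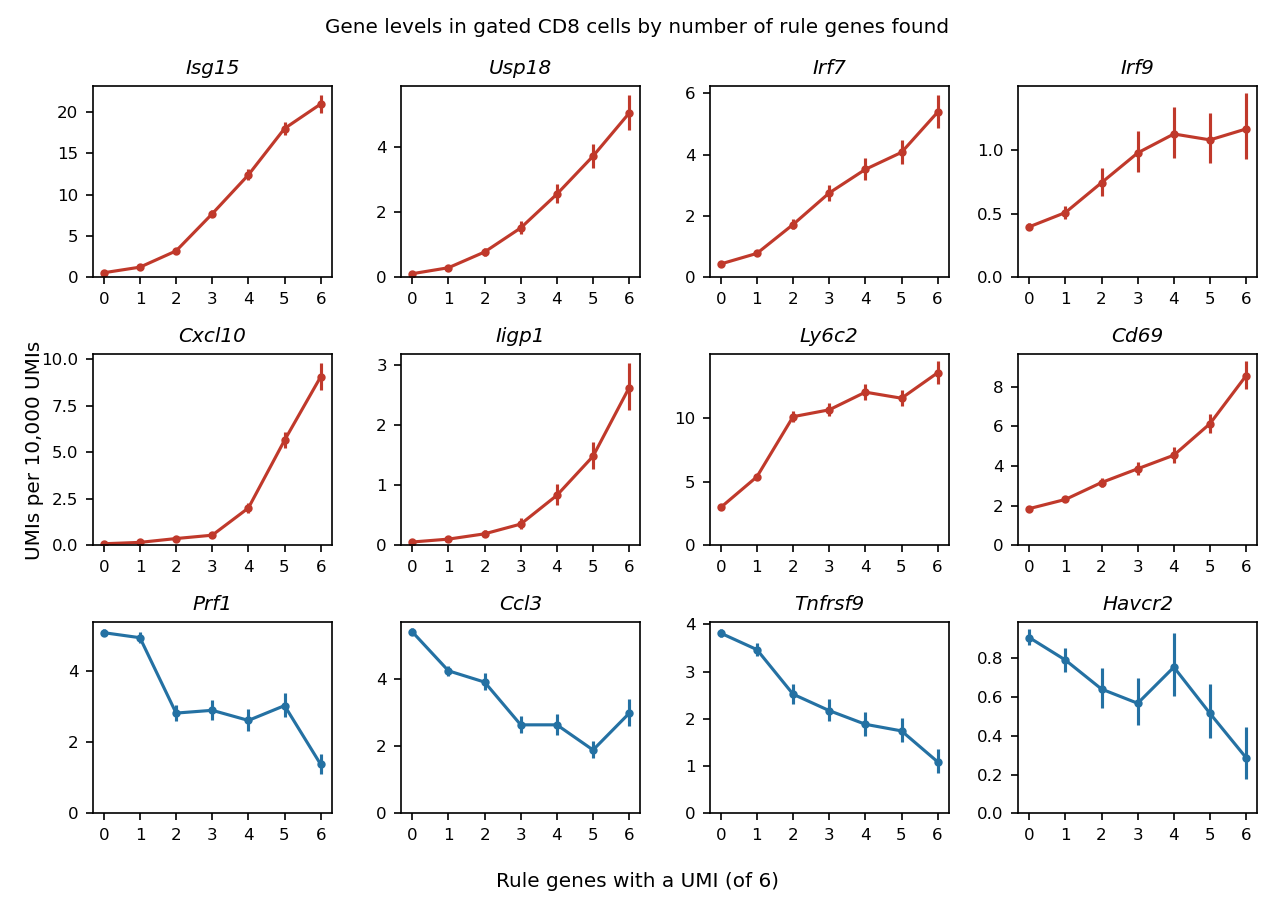
Level in UMIs per 10000 UMIs of 12 genes (linear axes from 0) in Mki67-negative CD8 cells of the anti-PD-1 library by the number of rule genes found, with exact 95% Poisson intervals as bars. Isg15 is at 0.57 with none and 21.0 with all 6, Ly6c2 is already at 10.1 with 2, and Tnfrsf9 goes from 3.81 to 1.09.

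The genes whose pattern was most like the count of rule genes were mostly on these lists, with Ms4a4b and Ly6a as the exceptions among the first 10. Over 4654 gated cells thinned to 3000 UMIs, Spearman's rho with that count was 0.53 for Isg15, 0.41 for Usp18, 0.40 for Rtp4, 0.39 for Ms4a4b, 0.38 for Irf7, 0.37 for Ifi209, 0.36 for Bst2, Zbp1 and Ifi203, and 0.35 for Ly6a. These are descriptions over cells of 1 library, and the thinning gives the cells 1 depth. The middle gene of the 9078 ranked stood close to 0, and the lowest, Actg1, a cytoplasmic actin, at -0.23.

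The interferon difference was seen both in cells with Ly6c2 and in cells without it. Isg15 had a log2 ratio of 4.41 among the 464 and 1229 cells with Ly6c2 and of 4.65 among the 178 and 1495 without it. Cd69 stood at 1.48 and 1.49. Prf1 was at -1.06 and -0.74 and Tnfrsf9 at -1.15 and -0.64. Havcr2 differed more, at -0.91 with Ly6c2 and -0.20 without, and Nrgn was at -1.71 and -0.53. These differences between the classes were not tested.

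ISRE-like letters were frequent before the starts of the higher genes. The same motif, GAAA with any 2 bases and a second GAAA after it, searched on both strands in the 250 bases before the start, was found for 936 of the 27025 genes in RefSeq's promoter table (3.46%). It was found for 25 of 55 matched genes at least 4-fold higher (45.5%), 51 of 260 at least 1.5-fold higher (19.6%), 126 of 4355 in between (2.89%) and 4 of 142 lower (2.82%). Of the 5 rule genes with an entry, 4 held it. Of the 20 highest genes 16 had an entry and 9 held it. None of the 15 lowest did, with an interval of 0 to 21.8% that also holds the 3.46% of all genes. It was found for 10 of 11 matched GTPase genes and 14 of 41 antiviral effector genes. Some genes have several start sites, and a gene counts when any of them holds the motif. The GAS motif TTCNNNGAA was found for 2197 of all genes (8.13%), 10 of the 55 (18.2%), 6 of the 11 GTPases (54.5%) and 8 of the 142 lower genes (5.63%). The motifs overlapped in 18 promoters of the table, and a match to letters is a description, not a binding site.

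Cells that met the same rule were found outside the gate and in other arms, as shares that depend on depth. Among Mki67-positive CD8 cells of the anti-PD-1 library, which had a median of 11445 UMIs, 288 of 2577 (11.2%, 9.98 to 12.5) had at least 3 rule genes. When each cell was thinned to 3000 UMIs, leaving out 27 of these and 116 gated cells below that depth, the share was 4.00% (3.27 to 4.83) there and 8.55% (7.76 to 9.39) in the gate. Among CD4 cells with neither Cd8a, Cd8b1 nor Mki67, the share was 43 of 458 (9.39%) without Foxp3 and 9 of 182 (4.95%) with it, or 6.43% and 2.35% after thinning. In the same CD8 gate, ATT-I had 11 of 63 cells (17.5%, 9.05 to 29.1), or 11.7% (4.82 to 22.6) after thinning. The vehicle library had 2 of 4 cells and the combination 0 of 11, which allows up to 28.5%. With 1 library an arm, and 4, 63 and 11 gated cells in the other arms, no comparison of the shares between arms was made. No cell class in the table is known to lack these genes, so a background share from free RNA was not set beside them.

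**Figure D5:**
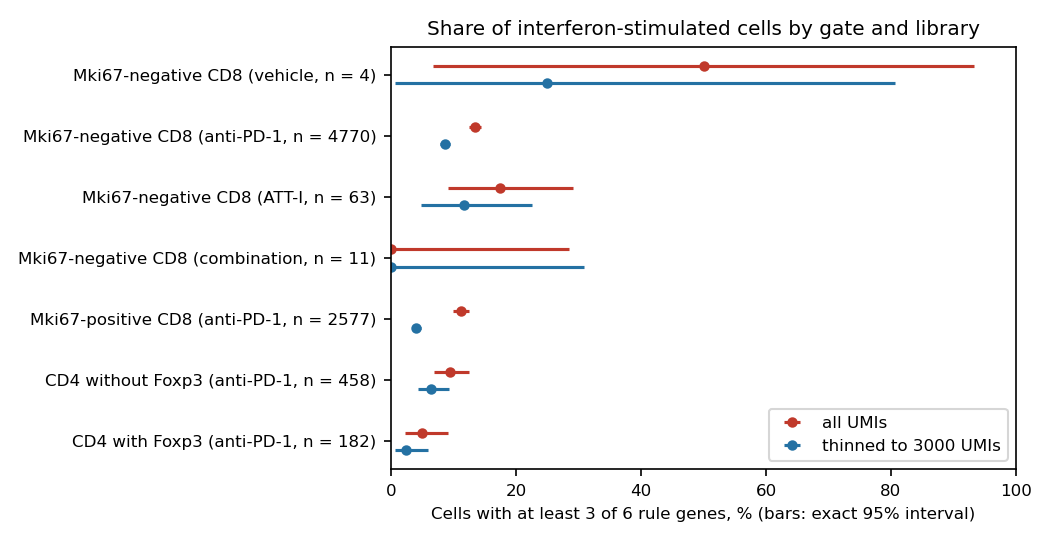
Percent of cells with at least 3 of the 6 rule genes by gate and library, for all UMIs (red) and after thinning each cell to 3000 UMIs (blue), with exact 95% binomial intervals as bars. The anti-PD-1 gate stands at 13.5% and 8.55%, and the intervals of the other arms are wide.

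The antiviral part of the difference was also seen in these other cells, while the median of the naive and memory list varied. Each contrast set cells with at least 3 rule genes against cells with none in the same class, with the rule applied in that contrast too. The genes compared were those of the anti-PD-1 gate that had at least 10 UMIs over both groups here. A group without a UMI takes a floor of 3 UMIs. In the small CD4 and ATT-I groups, a gene absent from the cells with rule genes can thereby be called higher. Myo10 in CD4 cells came to 0.83 on 0 against 12 UMIs. The CD4 and ATT-I shares, counts and medians below can be set in part by this floor. In Mki67-positive CD8 cells, where 5.65% of all genes were higher and 1.52% lower, 41 of 44 antiviral effectors were higher (median 2.0) and the naive and memory list had a median of 0.64. In CD4 cells without Foxp3, with 43 against 298 cells and 12.6% and 20.7% of genes higher and lower, 42 of 44 antiviral effectors were higher (median 2.29) and the naive and memory median was -0.01. The interval of the middle gene of that list was -0.79 to 0.68, which also holds the 0.63 of the anti-PD-1 gate. Ly6c2 was higher in these CD4 cells too, at a log2 ratio of 2.53, while Prf1 was at 0.22 (-0.85 to 1.15) on 11 against 67 UMIs. In ATT-I, 11 against 41 cells, 28.3% of genes were higher and 23.7% lower, 34 of 35 antiviral effectors were higher (median 2.46), and all 11 compared GTPases were. Ly6c2 was at 1.77 (1.37 to 2.17), Prf1 at -2.26 on 4 against 104 UMIs and Ccl3 at -1.15. Gzmb stood at 2.43 (2.08 to 2.77) and Pdcd1 at 0.87 (0.09 to 1.61), against 0.55 and -0.38 in the anti-PD-1 gate. The inhibitory receptor and exhaustion list, at -0.40 in that gate, had a median of -0.34 in Mki67-positive CD8 cells. Its median was -0.28 both in CD4 cells and in ATT-I, with intervals of the middle genes of -2.09 to 0.96 and -1.30 to 0.60. Among 15 cytotoxic and chemokine genes compared in ATT-I, 8 passed 1.5-fold upward and 6 downward. Their median was 0.64, against -0.07 in the anti-PD-1 gate, so effector genes did not share 1 direction. These differences between the arms were not tested.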

How the data were processed

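Single-cell RNA was measured in 4 arms, 1 library each, in tumours pooled per arm. Cell Ranger, Seurat and the mm10 build are named in the submitters' processing notes, and versions are not given in the sources used here. The authors' table holds natural log values. Read as the natural log of 1 plus UMIs per 10000 UMIs of the cell, less 1 constant per library (0.249 under anti-PD-1) and set to 0 below it, 100% of the authors' non-zero natural log values came out within 0.02 of a whole UMI. UMIs were recovered on this reading. In 3 gated cells, none of them among the 642, genes with 1 UMI are hidden by the subtraction.

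UMIs were summed over the cells of a group and divided by the group's total UMIs, and groups were compared as log2 ratios with exact 95% conditional intervals. A group with no UMI takes a floor of 3 UMIs, which in a small group can place an absent gene above the other group. Genes with a UMI in at least 10% of the cells of either group were compared, and those past 1.5-fold are called higher or lower. In the other cell classes and in ATT-I, the genes that passed in the anti-PD-1 gate were compared where both groups together had at least 10 UMIs. Shares have exact binomial (Clopper-Pearson) intervals. For shares, cells were also thinned at random to 3000 UMIs. No test was run: each arm is 1 library and the rule used these values. The computation was tested on simulated data (pandas 2.3.3, scipy 1.17.1 and numpy 2.4.6 under Python 3.11.15). No doublet caller was used, so doublets remain, and the share of very deep cells is given in the text.

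The cells, gene lists and comparisons were chosen with earlier results of these data known. The named genes are the 6 rule genes, the 20 highest and 15 lowest by log2 ratio, and members of the lists. The highest and lowest were taken after leaving out T cell receptor variable and immunoglobulin genes and provisional Gm, AW, BC and Rik names. Alternatives tried were the number of rule genes needed, the reference, thinning, depth matching, leaving out deep and shallow cells, cells with cycle genes or with markers of other cell types, equal weight per cell, scaling to the median gene and the filter on low genes. Promoters and gene types came from RefSeq and positions from GENCODE.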

Additional observations from a re-analysis of the deposited data

Results flagged for a closer look

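The naive and memory list had a median log2 ratio of 0.63 in the anti-PD-1 cells and of -0.60 in the ATT-I cells, each as cells with at least 3 rule genes over cells with none. It was singled out because the medians have opposite signs. The ATT-I value rests on 11 against 41 cells and on 8 compared genes, of which 2 were higher and 4 lower. In that contrast 28.3% of all genes were higher and 23.7% lower. These shares and the list's counts and median can be set in part by the floor of 3 UMIs for a group with none. The interval of the list's middle genes there was -1.86 to 0.43, so the sign of the ATT-I median is not settled. The difference between the arms was not tested.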

How the results depend on the processing

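The cells with at least 3 rule genes were defined by values of a single library, so the alternatives show only how the numbers move. No paired analysis was possible because each arm has 1 library. With at least 2 rule genes in place of 3, 102 genes were lower, the antiviral median was 1.80, the cytotoxic median -0.043 and the anti-PD-1 share 20.5%. With at least 4, these were 296, 2.29, -0.12 and 8.89%, and the ATT-I share was 7.94%. Thinning to 3000 UMIs gave 115 lower genes, a naive and memory median of 0.31 and, with the rule applied to the thinned UMIs, an anti-PD-1 share of 8.55%. A reference with 0 to 2 rule genes gave an antiviral median of 1.86 and lowered the ratios of Trim30c, Ifi204, Oasl1, Usp18, Isg15, Oas3, Tgtp2 and Rtp4 by over 1.5 times, none of them below a log2 ratio of 2.59. Without cells holding a UMI of Top2a, Mcm5, Birc5 or Rrm2, 283 genes were lower, the cytotoxic median was -0.0094, the exhaustion median -0.60 and the vehicle share 0%, and Gzmc reversed to 1.86. The cytotoxic median was -0.11 without the deepest and shallowest 10% of cells and -0.0022 relative to the median gene. With a filter of 10 UMIs over both groups, 1029 genes were higher and 1275 lower, since sparse genes enter, and the cytotoxic median was -0.15. Leaving out cells with Cxcl10, an alternative chosen after seeing the data, gave an antiviral median of 1.88. Leaving out the top cell of each group per gene, and reading promoters with the 50 bases after the start, which raised the antiviral share with an ISRE from 34.1% to 43.9%, were also chosen after seeing the data. The cause of the other shifts was not tested. Of 63 named genes, each under 11 settings, Gzmc alone was counted as changing sign. Such a change was counted only for genes past 1.5-fold in the main comparison. Gzma, Tcf7, Ccl4 and Havcr2 fell short of 1.5-fold in at least 1 setting, and Gzmb and Gzmk passed it upward in 6 and 5. Without cells holding markers of other lineages, which left 378 of the 642, Ifitm1 was at -1.42 and Myo1e at -2.14. Depth limits single sparse genes, and 4 vehicle and 11 combination cells limit the shares.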

Other observations

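T cell receptor beta variable segments were read from the 12 Trbv genes in the table, in cells with a UMI of exactly 1 of them. That left 115 of the 642 cells and 598 of the 2724 reference cells. Trbv2 was the segment in 18.3% of the first (11.7 to 26.5) and 32.6% of the second (28.9 to 36.5). Trbv12-2 was in 13.04% (7.49 to 20.6) and 7.86% (5.83 to 10.3), Trbv13-1 in 17.4% and 15.2%, and Trbv16 in 13.9% and 15.2%. All 12 segments occurred in the 642 cells. The pooled tumours are not separated, so the mix of mice behind each group cannot be told apart from the cells' state.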
